A study of Drosophila melanogaster with 8 samples.

Results

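The proteasome subunit genes of Drosophila melanogaster were taken from the Release 6 gene annotation as all genes whose symbol begins with Prosalpha, Prosbeta, Rpn plus a digit or Rpt plus a digit. This gave 48 genes of 15930 protein coding and lncRNA genes. Of the 48, 16 carry a T or R suffix and are called testis paralogs here, and 32 are the general copies, 14 of the core particle and 18 of the regulatory particle. The rule uses gene symbols alone. The assay was targeted DamID for RNA polymerase II (Pol II), in which a Dam methylase fused to Pol II marks GATC sites near the polymerase in cells that express it, and free Dam measures how open the same site is. The 8 libraries form 4 groups of 2, Dam-Pol II and Dam from flies given Pe and Dam-Pol II and Dam from flies given sucrose. Each pair of libraries is represented by 1 deposited profile, so that 2 Pe profiles and 2 Suc profiles were compared.

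Flies of the Pe groups were fed sucrose with a bacteria solution labelled Pe for 16 h, described in the labels as the damaged intestine, and flies of the Suc groups were fed sucrose alone for the same time. All flies were w-, carried dSRF-GAL4 with UAS-CD8GFP over +, and had tub-GAL80ts over either UAS-LT3-Dam-Pol II or UAS-LT3-Dam. They were raised at 18 °C, aged 7 days and kept at 29 °C for 24 h, which lifts the GAL80ts repression, and the feeding fell in the last 16 h. The tissue was 60 dissected midguts with their terminal tracheal cells (the branched cells that carry air to the gut) for each condition and replicate, so the cells that are labelled are those in which the driver is active. The sex of the flies is not given in the sources used here. Fewer labelled cells and less Pol II per cell cannot be told apart in such bulk profiles.

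The proteasome degrades proteins tagged with ubiquitin. Its core particle is a barrel of stacked rings, in which the alpha subunits form the outer rings and gate the channel and the beta subunits form the inner rings and carry the proteolytic sites. The regulatory particle caps the barrel: its base unfolds substrates with a ring of ATPases (Rpt) and its lid removes ubiquitin. In flies several subunits have a duplicate that is expressed mainly in the male germline.

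A gene's value is the mean log2 Dam-Pol II/Dam ratio of the GATC fragments that overlap it, weighted by overlap length, so that 0 means no more Pol II signal than free Dam. Genes with at least 3 fragments that were not at 0 in every profile were tested, 13993 in all and 46 of the 48 proteasome genes. The untested members were Prosalpha1R, listed at 0 in every profile, and Prosbeta4R1, which has 2 fragments and lay between -0.15 and -0.06. The median of all tested genes was 0.06 and 0.09 in Pe and -0.00 and 0.10 in Suc. Pe replicate 2 stood apart in that 26.0% of its fragments are at exactly 0, against 15.2% to 16.7% in the other profiles. Suc replicate 2 had the widest spread, with 95% of genes below 2.06 against 1.24 to 1.48 in the other profiles. Among the terminal tracheal markers bs, btl, trh, stumps and Cad99C, 1 of 5 was called occupied in Pe and 3 of 5 in Suc. The limma test used is given with the general copies and called 7.55% of all tested genes in Pe and 21.3% in Suc. Summed levels of the tracheal markers were 2.38 and 0.68 in Pe and 3.45 and 4.33 in Suc. Enterocyte markers carried signal too, with 2 of 5 called in Pe and 4 of 5 in Suc. The muscle, haemocyte and enteroendocrine markers had 0 called in either condition. For lists of 2 or 3 genes, a count of 0 is near the shares over all genes.

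The general copies carried Pol II signal as a group. Their median log2 ratio was 0.64 and 0.70 in Pe and 0.69 and 1.05 in Suc, and 29 of 32 were above 0 in all 4 profiles, against 37.8% of all tested genes. Their median rank among all genes by mean over the profiles was the 83.5th percentile. The general copies have 5 to 26 fragments each, and the 9133 tested genes in that range had medians of 0.08 and 0.11 in Pe and 0.01 and 0.18 in Suc. In limma's one-sided test of a mean above 0, with Benjamini-Hochberg adjustment at 0.05 over all genes, 8 of 32 general copies were called occupied in Pe (25.0%), where 7.55% of all tested genes were called. In Suc 22 of 32 were called (68.8%), where 21.3% of all genes were called, and 7 were called in both.

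Calls in Pe lay close to the threshold: the smallest adjusted p of any gene in Pe was 0.0458 in limma, and another 16 general copies had an adjusted p between 0.05 and 0.1. At an adjusted p under 0.1, 24 of 32 general copies passed in Pe (24.7% of all genes) and 26 of 32 in Suc (29.7% of all genes). The 8 calls in Pe became 28 of the 46 members after quantile normalization of the profiles (31.5% of all genes), 24 after scaling each profile by its median absolute deviation (22.1%), 0 when either Pe replicate was left out and 21 when either Suc replicate was (23.6%). The 23 calls among the 46 members in Suc became 0 when either Pe replicate was left out and 7 without Suc replicate 2 (6.16% of all genes). Without either Pe replicate, 0 of all tested genes were called in either condition. The counts in Pe and Suc therefore do not show a difference between the conditions, which is tested directly below.

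**Figure D1:**
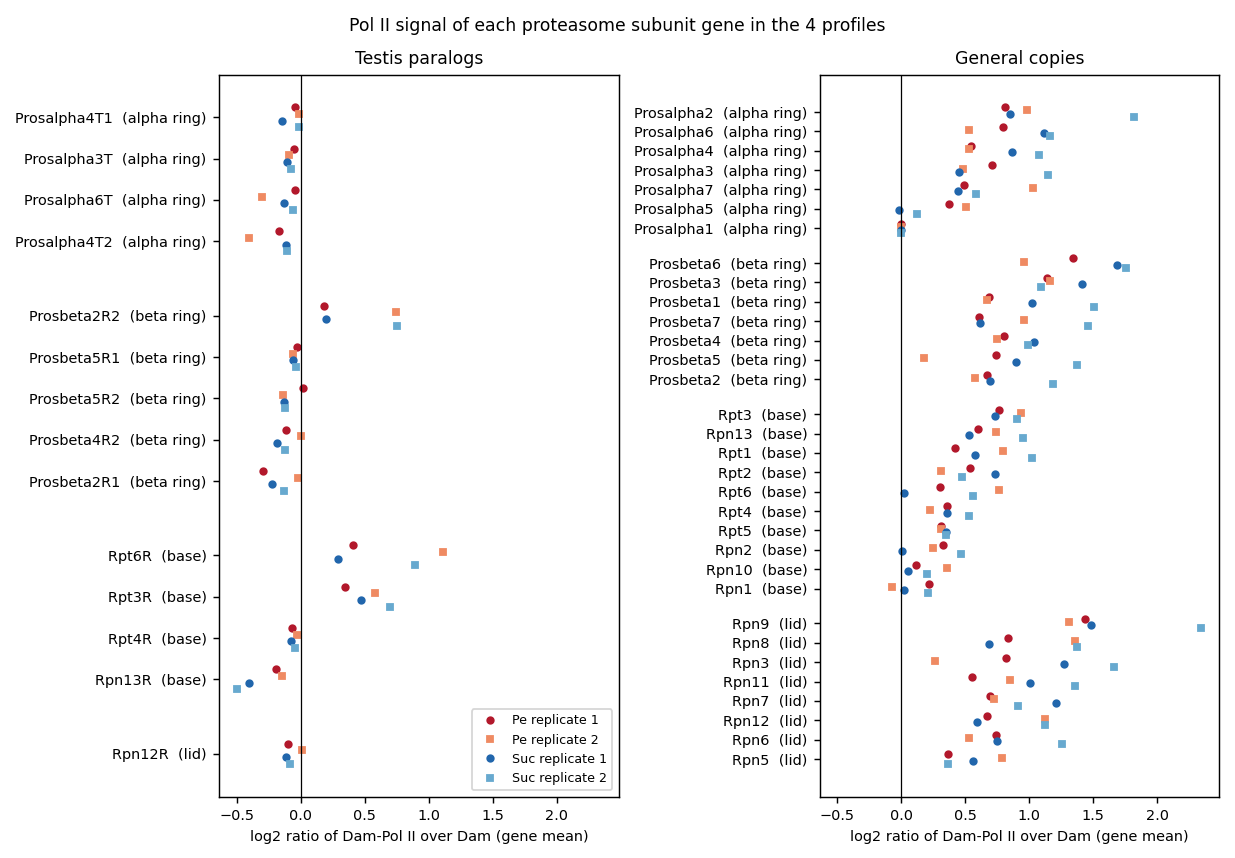
Gene mean log2 Dam-Pol II/Dam ratio (horizontal axis) of each tested proteasome gene, with testis paralogs in the left panel and general copies in the right panel, grouped by ring, base or lid; each symbol is 1 of the 2 Pe or 2 Suc profiles. Most general copies lie right of 0 in all 4 profiles, whereas most testis paralogs lie at or left of 0, apart from Rpt6R, Rpt3R and Prosbeta2R2.

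The alpha subunits, which form the outer rings of the barrel, ranged more widely than the beta subunits. Prosalpha2 was the highest by mean over the 4 profiles, at 0.81 and 0.98 in Pe and 0.85 and 1.82 in Suc. Prosalpha6 had 0.80 and 0.53 in Pe and 1.11 and 1.16 in Suc. Prosalpha6 was called in Pe, and both were called in Suc. Prosalpha5 was the lowest alpha gene with signal, at 0.37 and 0.51 in Pe and -0.02 and 0.12 in Suc. It was the only general copy called in Pe and not in Suc, with a limma adjusted p of 0.0496 in Pe and 0.561 in Suc. Prosalpha3, Prosalpha4 and Prosalpha7 lay between these by mean, from 0.44 to 1.14 in single profiles.

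Prosalpha1 was listed at 0 in every profile to 2 decimals. Its paralog Prosalpha1R lies 1734 bp away on chromosome arm 2R, and 20 of the 21 fragments from one end of the pair to the other are at exactly 0 in every profile, where 11.7% of all nuclear fragments are. The genes are known as close duplicates, so the value of either is uncertain, and their sequence was not analysed here. Low occupancy cannot be told apart from reads that were not placed.

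The 7 general beta genes, of the inner rings, were above 0 in every profile. They all exceeded the all-gene upper quartile in Pe replicate 1 and in both Suc profiles, and 6 of 7 did so in Pe replicate 2. Prosbeta6, a structural subunit, was highest by mean, at 1.34 and 0.96 in Pe and 1.68 and 1.76 in Suc. Prosbeta3, another structural subunit, had 1.14 and 1.16 in Pe and 1.41 and 1.09 in Suc, and its values overlapped between the conditions. Both were called in both conditions, as was Prosbeta4, at 0.80 and 0.75 in Pe and 1.04 and 0.99 in Suc. Prosbeta7 had 0.60 and 0.96 in Pe and 0.61 and 1.46 in Suc and was called in neither.

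The proteolytic sites sit on 3 beta subunits. Prosbeta1, the caspase-like subunit, had 0.69 and 0.67 in Pe and 1.02 and 1.51 in Suc. Prosbeta2, the trypsin-like subunit, had 0.67 and 0.57 in Pe and 0.70 and 1.19 in Suc. Prosbeta5, the chymotrypsin-like subunit, had 0.74 and 0.18 in Pe and 0.90 and 1.38 in Suc. None was called in Pe, where their limma adjusted p was 0.0591, 0.0645 and 0.159, and all 3 were called in Suc. Each had both Pe values below both Suc values on the deposited scale, as had 14.0% of all tested genes. Of the 14 core genes, 7 did so on that scale, 3 after quantile normalization and 3 after scaling by the median absolute deviation. The replicates of Prosbeta5 in Pe differed by more than those of the other catalytic genes.

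The base stood below the lid by median in every profile. Its median was 0.34 and 0.34 in Pe and 0.35 and 0.50 in Suc. Rpt3, an ATPase of the unfolding ring, was highest by mean, at 0.76 and 0.94 in Pe and 0.73 and 0.90 in Suc, and was called in both. Rpn13, a ubiquitin receptor, had 0.60 and 0.74 in Pe and 0.53 and 0.95 in Suc. The scaffold gene Rpn1, which docks shuttle factors, had a gene mean near 0, at 0.22 and -0.07 in Pe and 0.02 and 0.21 in Suc. Rpn10, another ubiquitin receptor counted with the base here, had 0.12 and 0.36 in Pe and 0.05 and 0.20 in Suc. Neither Rpn1 nor Rpn10 was called in either condition. The other base genes, Rpn2 and 5 ATPases, lay between 0.00 and 1.02 in single profiles. In all, 1 of 10 base genes was called in Pe, near the 7.55% of all tested genes, and 6 of 10 in Suc, where 21.3% were.

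The lid, a scaffold around the deubiquitinase Rpn11, stood higher. Its median was 0.72 and 0.82 in Pe and 0.88 and 1.31 in Suc. Called were 1 of 8 genes in Pe (Rpn7), near the 7.55% of all tested genes, and 7 of 8 in Suc, where 21.3% were. Rpn9, a structural lid subunit, had the highest mean of all members over the 4 profiles, at 1.44 and 1.31 in Pe and 1.49 and 2.34 in Suc, the 96.3rd percentile of all genes by its mean. Rpn8, the partner of Rpn11, had 0.83 and 1.36 in Pe and 0.69 and 1.38 in Suc. At the low end of the lid, Rpn5 had 0.37 and 0.79 in Pe and 0.56 and 0.36 in Suc, and it was the lid gene not called in Suc. Rpn6, a subunit known from yeast to clamp the cap to the barrel, had 0.74 and 0.53 in Pe and 0.75 and 1.26 in Suc. Rpn11 itself lay between 0.55 and 1.36 in the 4 profiles, with both Pe values below both Suc values, as in 14.0% of all tested genes. Rpn7, a structural subunit and the lid gene called in Pe, had 0.69 and 0.72 in Pe and 1.21 and 0.91 in Suc.

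The core median minus the regulatory median was 0.15 and -0.11 in Pe and 0.27 and 0.25 in Suc, so the sign turned in Pe replicate 2. On the mean of the profiles it was 0.14 (SD 0.18 over the 4 profiles), and it was 0.32 (SD 0.16) with fragments of a single gene and 0.24 (SD 0.06) without Pe replicate 2. The core median was 0.70 and 0.62 in Pe and 0.85 and 1.15 in Suc, and the regulatory median 0.54 and 0.73 in Pe and 0.58 and 0.91 in Suc. Called in Pe were 6 of 14 core and 2 of 18 regulatory genes, where 7.55% of all tested genes were. The regulatory count in Pe is near that share. In Suc 9 of 14 core and 13 of 18 regulatory genes were called, where 21.3% of all tested genes were. By median percentile among all genes, the beta ring and the lid both stood at 86.5, the alpha ring at 80.8 and the base at 70.0. These are descriptions, since a test over chosen members was not made. The longer genes tended to have lower values among the 31 general copies other than Prosalpha1 (Spearman's rho -0.29 between gene length and mean), where rho was 0.01 over all tested genes. The part of gene length in the order of base and lid was not tested.

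The testis paralogs carried little signal. Their median was -0.05 and -0.03 in Pe and -0.11 and -0.07 in Suc, below the all-gene median in every profile, and 8 of 14 were below 0 in all 4 profiles, against 20.6% of all tested genes. The number called was 0 of 14 in Pe (7.55% of all tested genes) and 1 of 14 in Suc, Rpt3R (21.3% of all tested genes). With 14 genes, the count of 0 in Pe is near the share over all genes. The 4 tested duplicates of alpha subunits were below 0 in every profile. Prosalpha3T lay between -0.11 and -0.05 and Prosalpha4T1 between -0.14 and -0.01. Prosalpha6T had -0.05 and -0.30 in Pe and -0.13 and -0.06 in Suc, and Prosalpha4T2 had -0.17 and -0.41 in Pe and -0.11 and -0.11 in Suc. Among duplicates of catalytic subunits, Prosbeta5R1 lay between -0.06 and -0.03 and Prosbeta5R2 between -0.14 and 0.02. Prosbeta2R1 had -0.30 and -0.02 in Pe and -0.22 and -0.13 in Suc. Prosbeta4R2, the duplicate of a structural subunit, had -0.11 and 0.00 in Pe and -0.19 and -0.12 in Suc. Of the regulatory duplicates, Rpn12R lay between -0.11 and 0.01 and Rpt4R between -0.08 and -0.03. Rpn13R was the lowest member by mean, at -0.19 and -0.14 in Pe and -0.40 and -0.49 in Suc, but all 8 of its fragments are shared with rg, a gene of 169106 bp that contains it and had 0.00 and 0.07 in Pe and -0.19 and -0.20 in Suc. Prosalpha4T1 and Rpn12R likewise lie within longer genes (CG42322 and Sytbeta) and have no fragment of their own.

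Each tested testis paralog was set against its general copy within each profile. Of 14 pairs, 12 were lower in the paralog in all 4 profiles, 1 was higher in all 4 and 1 was mixed. The median difference was -0.87 and the range -1.03 (Prosalpha6T minus Prosalpha6) to 0.27 (Rpt6R minus Rpt6). An exact two-sided sign-flip permutation test over 4 profiles cannot give a p below 0.13, the value of each pair with 1 sign throughout (0.135 after adjustment over 14 pairs), so no pair could pass 0.05. Prosalpha4, Prosbeta2 and Prosbeta5 each serve as general copy of more than 1 paralog, so those pairs share values.

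**Figure D2:**
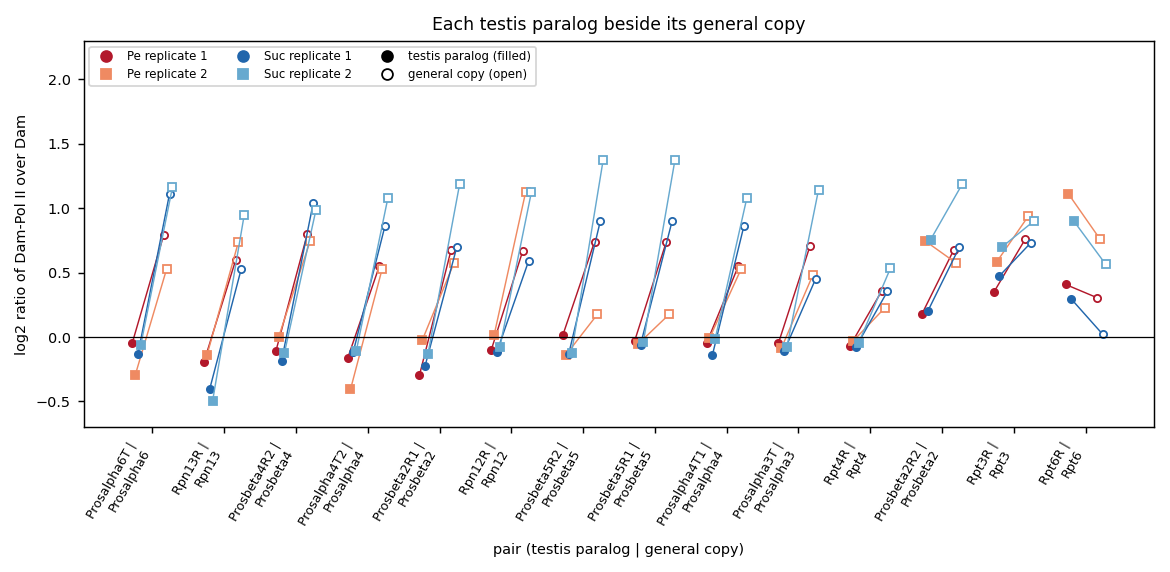
Log2 Dam-Pol II/Dam ratio of each testis paralog (filled) and its general copy (open), joined by a line within each of the 2 Pe and 2 Suc profiles and ordered by the mean difference. Lines rise from paralog to general copy in 12 of 14 pairs in every profile; they fall in every profile for Rpt6R and Rpt6 and fall in Pe replicate 2 for Prosbeta2R2 and Prosbeta2.

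The 3 paralogs with signal were Rpt6R, Rpt3R and Prosbeta2R2, and their fragments show where it lay. Rpt6R, the duplicate of an ATPase, had 0.41 and 1.11 in Pe and 0.30 and 0.90 in Suc, against 0.31 and 0.76 in Pe and 0.02 and 0.56 in Suc for Rpt6, a mean difference of 0.27 ± 0.11 (SD, n = 4 profiles). Neither gene was called in either condition. In Rpt6R (chr3R:30582198-30583697, Release 6) the fragment from 30582735 to 30583005, which overlaps no other gene, had 0.60 and 1.53 in Pe and 1.02 and 1.17 in Suc. The gene CG9717, 323 bp away, was higher than Rpt6R in every profile, at 0.93 and 2.20 in Pe and 1.27 and 2.29 in Suc. The comparison copy Rpt6 overlaps CG1801, and 11 of its 12 fragments are shared with another gene.

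Rpt3R had 0.35 and 0.58 in Pe and 0.47 and 0.70 in Suc, against 0.76 and 0.94 in Pe and 0.73 and 0.90 in Suc for Rpt3. Its limma adjusted p was 0.0612 in Pe and 0.0314 in Suc. After scaling by the median absolute deviation it was not called in Suc, where 0 of 14 testis paralogs and 13.3% of all genes were. Its signal (chr3R:9754735-9756510) lay towards the higher coordinate: the fragment from 9756095 to 9756392 had 1.16 and 0.94 in Pe and 2.04 and 1.69 in Suc, while the fragment from 9755201 to 9755309 was at 0 in every profile. Prosbeta2R2 had 0.18 and 0.75 in Pe and 0.20 and 0.76 in Suc, against 0.67 and 0.57 in Pe and 0.70 and 1.19 in Suc for Prosbeta2. Its signal (chr3R:5217751-5219528) was highest in the last of 5 fragments in every profile, at 1.80 and 1.90 in Pe and 2.10 and 1.99 in Suc, and that fragment is shared with CG1116, a gene 129 bp beyond it that had 0.81 and 1.12 in Pe and 0.77 and 1.36 in Suc. The fragment before it, from 5218532 to 5219394, overlaps no other gene and had 0.05 and 0.99 in Pe and -0.07 and 1.03 in Suc, so that it carried signal in replicate 2 of each condition. The first fragment of Prosbeta2R2 lay between -0.05 and 0.07. Pol II on the paralog and on its neighbour cannot be told apart in a shared fragment.

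**Figure D3:**
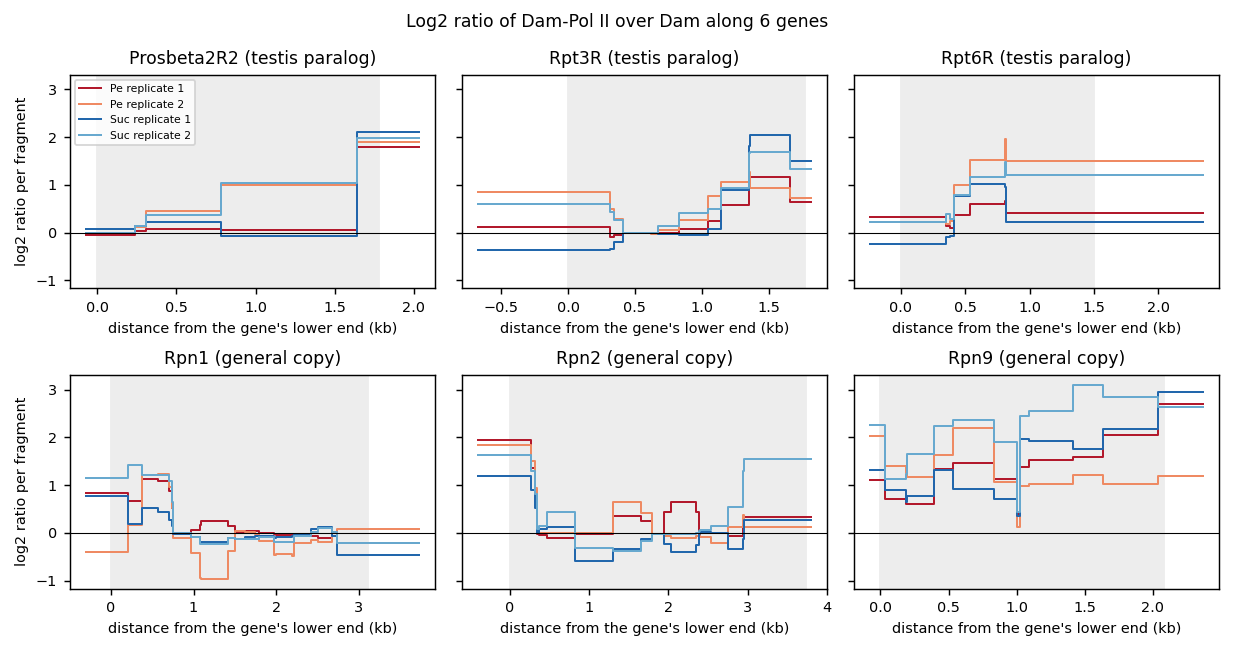
Log2 Dam-Pol II/Dam ratio of each GATC fragment against distance in kb from the lower-coordinate end, for the testis paralogs Prosbeta2R2, Rpt3R and Rpt6R (top) and the general copies Rpn1, Rpn2 and Rpn9 (bottom), 1 line for each Pe and Suc profile; grey marks the gene. Signal is highest towards one end in Prosbeta2R2, Rpt3R and Rpn1, stands at the low-coordinate end of Rpn2 in every profile and at its other end too in Suc replicate 2, and spans Rpn9.

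Markers of the male germline were near 0 with a pair of exceptions. Of the list bam, vas, aub, betaTub85D, dj, ProtA, ProtB, Mst87F, can, sa, aly and twe, 0 of 12 were called in either condition (7.55% of all genes in Pe and 21.3% in Suc), and the list's median was -0.03 and 0.00 in Pe and -0.08 and -0.09 in Suc. The sperm protamine genes ProtA and ProtB lay between -0.10 and -0.04 in every profile. The exceptions were sa, at 0.86 and 1.86 in Pe and 0.52 and 1.27 in Suc, and twe, at 0.30 and 0.75 in Pe and 0.06 and 0.81 in Suc, neither of them called.

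Some general copies with a low gene mean had fragments with signal towards an end. Rpn1 (chr3L:19915051-19918160) had 1.14 and 1.22 in Pe and 0.53 and 1.21 in Suc in its fragment from 19915428 to 19915624, and was at or within 0.11 of 0 in every profile from 19915813 to 19916010. Rpn2, the other large scaffold of the base (chr3R:29153524-29157255), had 1.95 and 1.85 in Pe and 1.20 and 1.64 in Suc in its first fragment, which it shares with another gene, against a gene mean of 0.33 and 0.24 in Pe and 0.00 and 0.47 in Suc. The last fragment of Rpn2 had 0.33 and 0.13 in Pe and 0.28 and 1.55 in Suc. With each gene divided into 3 equal parts, the middle part was the lowest in 15 of 32 general copies (46.9%), against 27.7% of all tested genes and 1 of 14 testis paralogs. Rpn9 (chr3R:23731375-23733462) had signal throughout, from 0.61 in its lowest to 3.11 in its highest fragment of over 100 bp, and it overlaps CG10365, which had 1.31 and 1.64 in Pe and 1.69 and 2.58 in Suc. A fragment shared with another gene occurs in 30 of 32 general copies (93.8%), 11 of 14 testis paralogs and 77.3% of all tested genes.

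Fragments around the general copies carried signal too. Fragments centred inside the gene had a median, over genes, of 0.62 on the mean of the 4 profiles, those within 1 kb of an end 0.63, those 1 to 2 kb away 0.46, those 2 to 5 kb away 0.42 and those 5 to 10 kb away 0.20. The testis paralogs stayed between -0.05 and 0.02 over the same steps, and all tested genes between 0.03 and 0.14. At 24 of 32 general copies the inside exceeded the fragments 5 to 10 kb away, against 6864 of 13993 tested genes. It exceeded the fragments within 1 kb at 12 of 32. The flanks hold other genes, and signal of a member was not separated from that of its neighbours.

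**Figure D4:**
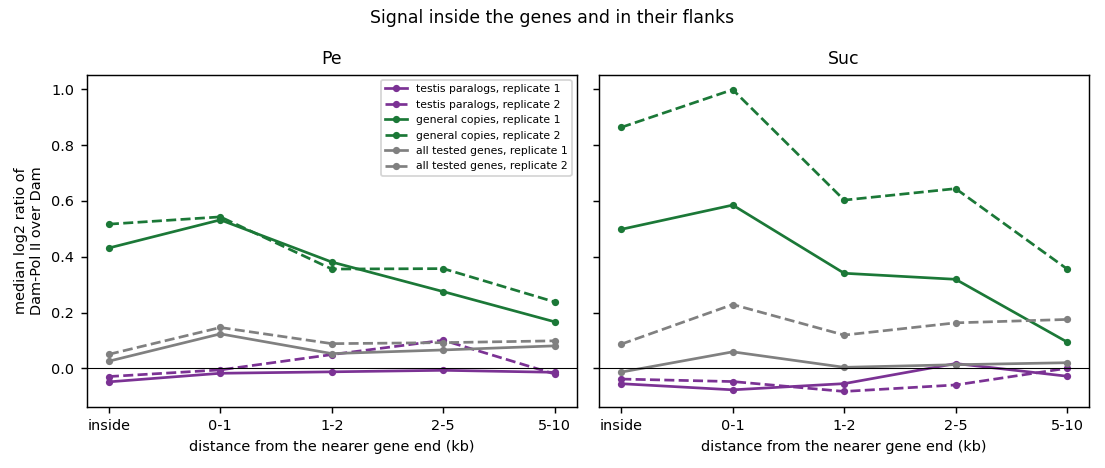
Median over genes of the log2 Dam-Pol II/Dam ratio for fragments inside the gene and in 4 steps of distance from the nearer gene end, in Pe (left) and Suc (right), with solid lines for replicate 1 and dashed lines for replicate 2. General copies are above all tested genes at each step in each profile, and the testis paralogs stay near 0.

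The comparison of Pe with Suc asks whether Pol II occupancy of these genes differed with gut damage. In limma's two-sided test 0 of 46 members were called higher (0.0% of all tested genes) and 0 lower (0.0%), and the smallest adjusted p was 0.897. At an unadjusted p under 0.05, 2 of 46 members were higher (1.65% of all genes) and 4 lower (2.27%). These counts were 1 higher and 1 lower after quantile normalization, and 1 higher and 0 lower after scaling by the median absolute deviation. With a profile left out, 0 were higher, and the lower ones numbered 3 when this was Pe replicate 1, 0 when it was Pe replicate 2, 8 when it was Suc replicate 1 and 1 when it was Suc replicate 2. The higher members were Prosalpha5, with a difference of 0.39 (SE 0.11), and Rpn13R, with 0.28 (SE 0.09). The next in order of p among higher members was Prosbeta4R2 (0.10, SE 0.09), whose difference was about as large as its error. The lower members were Prosalpha4, at 0.55 and 0.53 in Pe and 0.86 and 1.08 in Suc (-0.43, SE 0.11), Prosalpha6 (-0.48, SE 0.13), Prosbeta6 (-0.57, SE 0.17) and Rpn3. Rpn3, a structural lid subunit named here after its values were seen, had the largest difference of the 46 tested members on the deposited scale, with 0.82 and 0.26 in Pe and 1.27 and 1.66 in Suc (-0.93, SE 0.28). Their sizes depended on the scale. After scaling by the median absolute deviation the difference was -0.18 for Prosalpha4, -0.17 for Prosalpha6, -0.07 for Prosbeta6 and 0.17 for Rpn13R, and after quantile normalization it was -0.27 for Prosalpha4, -0.28 for Prosalpha6, -0.24 for Prosbeta6 and 0.03 for Prosbeta4R2. Without Pe replicate 2 it was -0.38 for Prosbeta6 and 0.04 for Prosbeta4R2. None of these passed the adjustment: the limma adjusted p was 0.897 for each of these genes with an unadjusted p under 0.05.

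**Figure D5:**
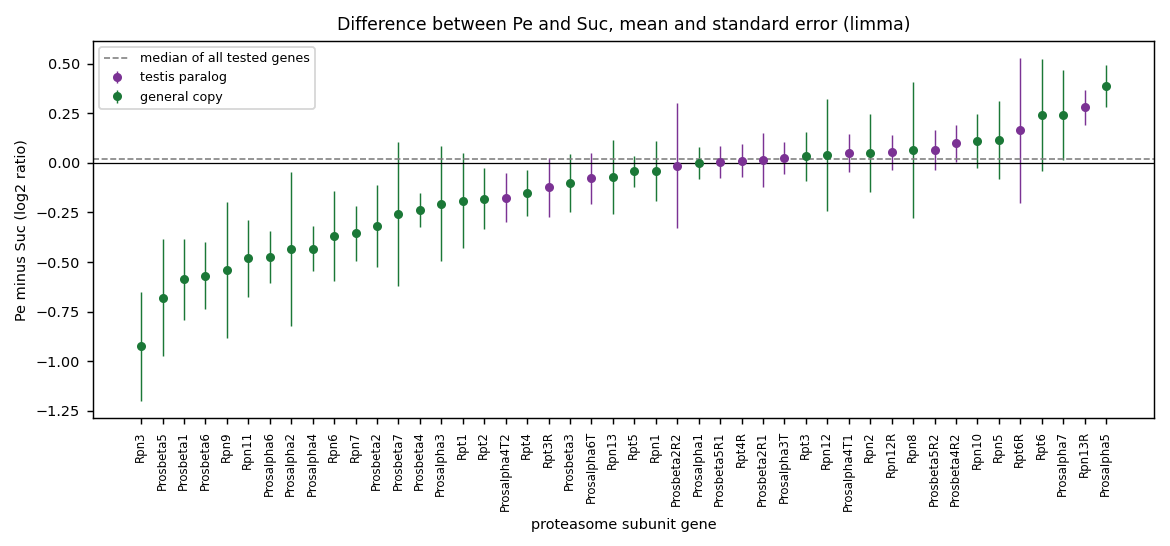
Difference in mean log2 ratio, Pe minus Suc, with its limma standard error for each tested proteasome gene, ordered by size, testis paralogs in purple and general copies in green; the dashed line is the median of all tested genes. General copies run from -0.93 (Rpn3) to 0.39 (Prosalpha5) with a median of -0.19 on the deposited scale, which is -0.02 after quantile normalization and turns to 0.02 after scaling by the median absolute deviation.

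Below these single genes, the general copies lay more often lower in Pe on the deposited scale: 22 of 32 had a difference below 0 (45.3% of all genes did), with a median of -0.19 against 0.02 for all genes, but the median was -0.02 after quantile normalization, 0.02 after scaling by the median absolute deviation (15 of 32 below 0) and -0.02 without Suc replicate 2 (16 of 32 below 0). The count below 0 was 21 of 32 after quantile normalization, 26 without Suc replicate 1, 27 without Pe replicate 2 and 22 without Pe replicate 1. Both Pe values lay below both Suc values in 13 of 32 general copies (14.0% of all genes) and above them in 1, Prosalpha5 (23.0% of all genes). After quantile normalization these counts were 5 below and 5 above, where 15.6% and 20.3% of all genes were. After scaling by the median absolute deviation they were 4 below and 6 above, where 10.6% and 20.1% of all genes were. The 3499 genes with the highest mean depended on the scale too. Their median difference was -0.20 on the deposited values, 0.04 after quantile normalization and 0.14 after scaling by the median absolute deviation. On the deposited values 2625 of these 3499 genes had a difference below 0. On that scale the general copies, at 68.8%, were therefore not more often below 0 than these genes with a high mean. On the other scales they were more often below 0. The share was 65.6% of general copies against 44.8% of the 3499 genes after quantile normalization. After scaling by the median absolute deviation it was 46.9% against 32.2%. On the deposited values, both Pe values lay below both Suc values in 891 of the 3499 (25.5%), fewer than the 40.6% of general copies. By class, the median difference on the deposited scale was -0.29 in the core and -0.06 in the regulatory particle, which became -0.09 and -0.01 after quantile normalization and -0.03 and 0.06 after scaling by the median absolute deviation.

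Tracheal and enterocyte markers also had lower values in Pe on the deposited scale. All 5 tracheal markers had a difference below 0, with a median of -0.52, as had 4 of 5 enterocyte markers, with a median of -1.15, none of them called. The stem cell and enteroblast marker esg had -0.63. Other lists had a median difference of 0.12 (3 muscle markers), 0.05 (2 enteroendocrine), 0.10 (12 male germline) and -0.01 (2 haemocyte). These differences are given on the deposited scale only. The part of marker genes in the values of the general copies was not tested. The testis paralogs had a median difference of 0.02. Both Pe values lay below both Suc values in 1 of 14, Prosalpha4T2 (14.0% of all genes did). They lay above in 2, Rpn13R and Prosbeta4R2 (23.0% of all genes did). These counts were 3 below and 1 above after quantile normalization (15.6% and 20.3% of all genes). After scaling by the median absolute deviation they were 1 below and 1 above (10.6% and 20.1%).

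Values of the general copies were correlated between profiles, though less so with Pe replicate 2. Pearson's r over the 32 genes was 0.62 between the Pe profiles, 0.79 between the Suc profiles and 0.48 to 0.88 between profiles of different conditions, as a description over genes measured in the same libraries. Pe replicate 2 had the lowest values of r, at 0.48 to 0.62. It had the lowest over all tested genes too, where r was 0.75 to 0.83 with Pe replicate 2 and 0.90 to 0.93 among the other profiles. The 32 genes include Prosalpha1, listed at 0 in every profile to 2 decimals.

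Genes that assemble, supply or control the proteasome were read from a list of 25 names, of which 21 genes were tested. Pomp, an assembly chaperone, and Sem1, a small lid subunit, have too few fragments and were not tested, Ecm29 was not analysed here, and Ufd1-like is another name of Ufd1. Called occupied in Pe were 4 of 21, where 7.55% of all tested genes were: PI31, a proteasome-binding regulator, p47, an adaptor of the unfoldase TER94, the polyubiquitin gene Ubi-p5E, and cnc, the Nrf factor that in flies activates proteasome genes. In Suc 9 of 21 were called, where 21.3% of all genes were, the same 4 with the deubiquitinase Usp14, the shuttle factor rngo, the TER94 cofactor Ufd1, the polyubiquitin gene Ubi-p63E and the N-glycanase Pngl. PI31 had 1.12 and 1.06 in Pe and 1.19 and 0.85 in Suc, and Ubi-p5E had 0.91 and 1.18 in Pe and 1.03 and 1.31 in Suc, so both overlapped between the conditions. The activator cnc had 0.52 and 0.56 in Pe and 0.36 and 0.60 in Suc, and its inhibitor Keap1 had 0.43 and 0.11 in Pe and 0.13 and 0.82 in Suc.

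None of the 21 was called different between Pe and Suc, and 11 had a difference below 0, with a median of -0.07. First in order of p was Ufd1, at 1.03 and 0.33 in Pe and 1.22 and 1.85 in Suc (-0.86, SE 0.37). Npl4, the partner of Ufd1, had 0.03 and 0.18 in Pe and -0.06 and -0.08 in Suc (0.18, SE 0.09). TER94 itself had a difference of 0.20 (SE 0.13), and the deubiquitinase Uch-L5 one of 0.11 (SE 0.08), and the limma adjusted p of all 4 was 0.897. The list's median was 0.43 and 0.47 in Pe and 0.33 and 0.67 in Suc, between that of all tested genes and that of the general copies in each profile.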

How the data were processed

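The deposited values are the authors' log2 Dam-Pol II/Dam ratios by GATC fragment, 1 profile per replicate. The log base is read from their range and signs. Not given in the sources used here were the aligner, the scaling and how the ratio was made. The build is BDGP 6, per the submitters' processing notes. Depth is unknown, so precision rests on 2 profiles per condition, which the labels call biological replicates. The file of Suc replicate 2 carries the track number 3, and the labels' replicate number was used.

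Gene positions are those of RefSeq for Release 6, in a table that gives no strand, exons or sequence; no promoter or protein sequence was analysed here. After 28 mitochondrial fragments were left out, 383654 fragments remained (median 197 bp). Of 15930 genes, 14089 had at least 3 fragments and 96 at 0 in every profile were left out; 13993 were tested, with a median of 11 fragments.

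Group means and Pe minus Suc were fitted with limma 3.58.1 (R 4.3.3) with 1 spread for both conditions, 2 residual degrees of freedom and a prior variance trended on fragment number, with Benjamini-Hochberg adjustment over all tested genes. Profiles were also simulated over 13993 genes, with independent normal noise of limma's moderated spread. Pe minus Suc was called for 23 of 100 genes with a true difference of 1 and for 85 of 100 with one of 2. It was called for 5 unchanged genes. A profile that stands apart, as Pe replicate 2 did, was not simulated, so these shares may not hold for the deposited profiles. There 0 genes were called, though differences ran from -2.28 to 1.67. Python 3.11.15 (numpy 2.4.6, pandas 2.3.3, scipy 1.17.1) gave medians, pairs and fragment values. The members, the gene lists and the markers were chosen with earlier results of these data known.

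Genes named are the 2 highest and 2 lowest general copies of each ring, base and lid, the 3 catalytic subunits, every tested paralog, the 3 members per direction with the smallest unadjusted p in Pe minus Suc, and of the pathway list those called and the 4 with the smallest p; others complete a class or were named after their values were seen. Alternatives were 2 other scalings, 2 other filters on fragment number, unweighted means, fragments of a single gene, a block for the replicate number, 1 prior variance and leaving out each profile; leaving out Prosalpha1 was added after seeing the data.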

Additional observations from a re-analysis of the deposited data

How the results depend on the processing

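Of 46 members, 8 were called occupied in Pe, and this count was 28 after quantile normalization (31.5% of all genes), 24 after scaling by the median absolute deviation (22.1%), 1 of 18 with at least 10 fragments, 0 of 40 with fragments of a single gene, and 0 to 21 when one profile was left out (0 without either Pe replicate and 21 without either Suc replicate); it was 7 to 9 under no filter, unweighted means and 1 prior variance. The share of all genes called in Pe was 3.74% with at least 10 fragments and 0.87% with fragments of a single gene. The count of 0 of 40 is near the latter share. In Suc 23 members were called (21.3% of all genes), and 11 of 18 with at least 10 fragments (20.9%). The count was 16 to 27 under the other alternatives that keep every profile (13.3% to 29.9% of all genes). It too depended on which profile was left out. Without a profile of one condition, 1 residual degree of freedom remains for the whole fit and the lone profile is assumed to vary like the others. No member was called different between Pe and Suc under any of the 12 alternatives run. The median difference of testis paralogs and general copies was -0.87, and -0.42 with at least 10 fragments, where 3 pairs are left; it was -0.93 to -0.70 when one profile was left out. Core minus regulatory was 0.14 on the mean of the profiles, 0.19 without Prosalpha1 and 0.07 to 0.32 under the other alternatives, of which the filter at 10 fragments leaves 1 core gene. The differences of Prosalpha4, Prosalpha5, Prosalpha6, Prosbeta6, Prosbeta4R2 and Rpn13R kept their sign in all 65 refits, which did not include Rpn3. In these 6 genes both Pe values lay on one side of both Suc values, so leaving out a profile could not turn the sign. The block, the 1 prior variance and no filter leave the difference itself unchanged. Most of these refits therefore could not test the sign, and the sizes changed with the scale. With the replicate number as a block, 24 members were called in Pe (23.5% of all genes), 27 in Suc (28.7%) and 0 between conditions. With 2 pairs, deviations of same-numbered profiles correlated at 0.285, and the numbers were not taken as pairing. The cause of these changes was not tested beyond the fewer genes or profiles of a setting. Depth is unknown and limits no value in a way that can be computed.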

Other observations

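The proteasome genes are scattered over the genome, with 8 on chromosome arm 2L, 13 on 2R, 7 on 3L, 14 on 3R and 6 on X. Apart from the pairs Prosalpha1 with Prosalpha1R and Prosbeta4R1 with Prosbeta4R2, which lie 1734 bp and 1467 bp apart, the nearest members are Rpn9 and Rpt5, 19.4 kb apart. Rpn9 was the highest member by mean, while Rpt5, an ATPase of the base, had 0.31 and 0.31 in Pe and 0.35 and 0.35 in Suc. Rpn12 and Prosbeta6 lie 25.4 kb apart, and Rpn12, a structural lid subunit, had 0.67 and 1.12 in Pe and 0.59 and 1.12 in Suc. The testis paralog Rpn12R lies 40.3 kb from the general copy Prosbeta2 and was near 0 in every profile. Among cell type markers, esg, which marks stem cells and enteroblasts of the midgut, had 0.15 and 0.22 in Pe and 0.77 and 0.86 in Suc and was called in Suc.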
